A study of Mus musculus with 14 samples.

Results

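Potassium channel genes were followed in primary hippocampal cultures of wild-type C57BL6 mice after 15 h of picrotoxin or of its control. The members were selected on 2 things, a symbol that starts with Kcn and at least 80 counts summed over the 8 RNA-seq libraries. Of 99 genes with such a symbol, 5 noncoding transcripts were dropped, namely Kcnq1ot1 and 4 whose name ends in os or in os and a number. Of the 94 others, 70 reached 80 counts, out of 43629 gene identifiers listed. They comprise 33 genes of voltage-gated pore-forming subunits, 9 of subunits that accompany those, 9 of Kcnj inward rectifiers, 10 of Kcnk tandem-pore channels, and 9 of the Kcnm, Kcnn, Kcnt and Kcnu group.

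The PTX group holds 4 cultures treated with 100 µM picrotoxin, and the CTRL group holds 4 cultures treated with 0.1% DMSO. The labels name no DMSO for PTX, so a difference in vehicle and the effect of picrotoxin cannot be told apart if PTX cultures had none. All 8 were prepared from pups of postnatal day 0 to 1, kept for 14 days in vitro and described as biological replicates, and since the sources used here do not say that each came from a separate preparation, p-values measure the spread between these samples, which may be technical. Picrotoxin blocks the chloride channel of GABA-A receptors, so that inhibition in the network is reduced. The study also made chromatin immunoprecipitation (ChIP-seq) libraries for L3mbtl1, a protein that reads histone methylation, from hippocampus of wild-type (3 samples) and L3mbtl1-/- (3 samples) mice of a C57BL6/129 background at postnatal day 7 to 8, with 1 peak list for all of them.

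Potassium channels let potassium leave the cell and so bring the membrane back towards rest, which sets spike width, spike interval and the response to synaptic input. Voltage-gated channels are built of 4 pore-forming subunits that may differ, and silent subunits and cytoplasmic or calcium-binding partners change where and how such channels open. Inward rectifiers and tandem-pore channels hold the resting potential, and channels gated by calcium or sodium follow the activity of the cell. In the hippocampus many of these genes are neuronal, while Kcnj10 and Kcnj16 are known from astrocytes and Kcnk13 from microglia.

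The summed count that chose the members took all 8 libraries alike, and it is given here as a description. Its lowest value was 87 and its median 2083. Just inside the limit lay Kcnk12 with 87 counts, Kcnk5 with 95 and Kcnk6 with 110. Just outside lay Kcnn4 with 73 counts, Kcnj13 with 40 and Kcnrg with 37. Of the members, 60 had at least 80 counts in each group alone, 3 in PTX alone (Kcnh8, Kcne4 and Kcnk13), 4 in CTRL alone (Kcng1, Kcnj11, Kcnk4 and Kcnu1) and 3 in neither. Among the 24 genes outside was Kcnh6, with 0, 2, 0 and 0 counts in PTX and 9, 11, 8 and 6 in CTRL. Others outside went the other way, such as Kcnj14 with 2, 7, 6 and 10 counts in PTX and 1, 3, 3 and 5 in CTRL.

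Gene counts per library ran from 15082428 to 16838989 in PTX and from 14524916 to 19498189 in CTRL. Principal components parted the groups along the first axis (60.4% of variance), while along the second (21%) replicate 1 of PTX and of CTRL stood away from the rest. In those libraries the summed level of 8 meningeal fibroblast markers was 565 CPM (the count scaled to library size) in PTX and 710 CPM in CTRL, against 115 to 143 CPM in the other PTX and 154 to 225 CPM in the other CTRL libraries. Defining markers of neurons were present in every library. Of 10 markers listed for excitatory neurons 8 fell, where 20.1% of all genes tested were called lower. The list includes Rbfox3 and Tubb3, which mark neurons in general, so it does not measure excitatory neurons alone. Its summed level was 388 to 529 CPM in PTX and 690 to 945 CPM in CTRL. The neuronal nuclear marker Rbfox3 was at 22.2 ± 4.51 CPM in PTX and 44.3 ± 2.88 CPM in CTRL (SD, n = 4 each). Of 10 inhibitory neuron markers 5 rose and 3 fell, where 19.0% of all genes were called higher and 20.1% lower. Their summed level was 1170 to 1330 CPM in PTX and 798 to 1010 CPM in CTRL. In such bulk samples fewer cells of a type and less RNA per cell cannot be told apart, and the part of these markers in the channel results was not tested.

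More channel genes fell than rose. Of the 69 members that passed the filter on low counts, 35 fell and 12 rose with picrotoxin, and 22 did not pass the test (edgeR quasi-likelihood test, adjusted p under 0.05). Over all 15959 genes tested, 39.2% were called, 20.1% lower and 19.0% higher, so that the share of falls among the channel genes (50.7%) stood above that over all genes and the share of rises (17.4%) near it. The median log2 fold change, PTX over CTRL, was -0.63 over the members and -0.03 over all genes tested. At least 2-fold changes made up 23 of the falls and 4 of the rises, while over all genes 5.13% were called and at least 2-fold lower and 6.75% called and at least 2-fold higher. The PTX libraries all lay below the CTRL libraries for 31 members and all above for 10, where 19.5% and 18.4% of all tested genes did so (38.0% together). The summed level of the members was 2056 ± 45.6 CPM in PTX and 2289 ± 110 CPM in CTRL (SD, n = 4 each), and 5 of the 10 members with the most counts rose (Kcnk1, Kcnf1, Kcna4, Kcna1 and Kcnd2). CPM values were not divided by transcript length, so levels are compared here between groups and not between genes. With the replicate number as a block, 43 members were lower and 14 higher, where 55.3% of all genes were called, 29.6% lower and 25.7% higher. DESeq2 called 34 members lower and 12 higher, where it called 31.5% of 20795 genes, 14.7% lower and 16.8% higher.

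**Figure D1:**
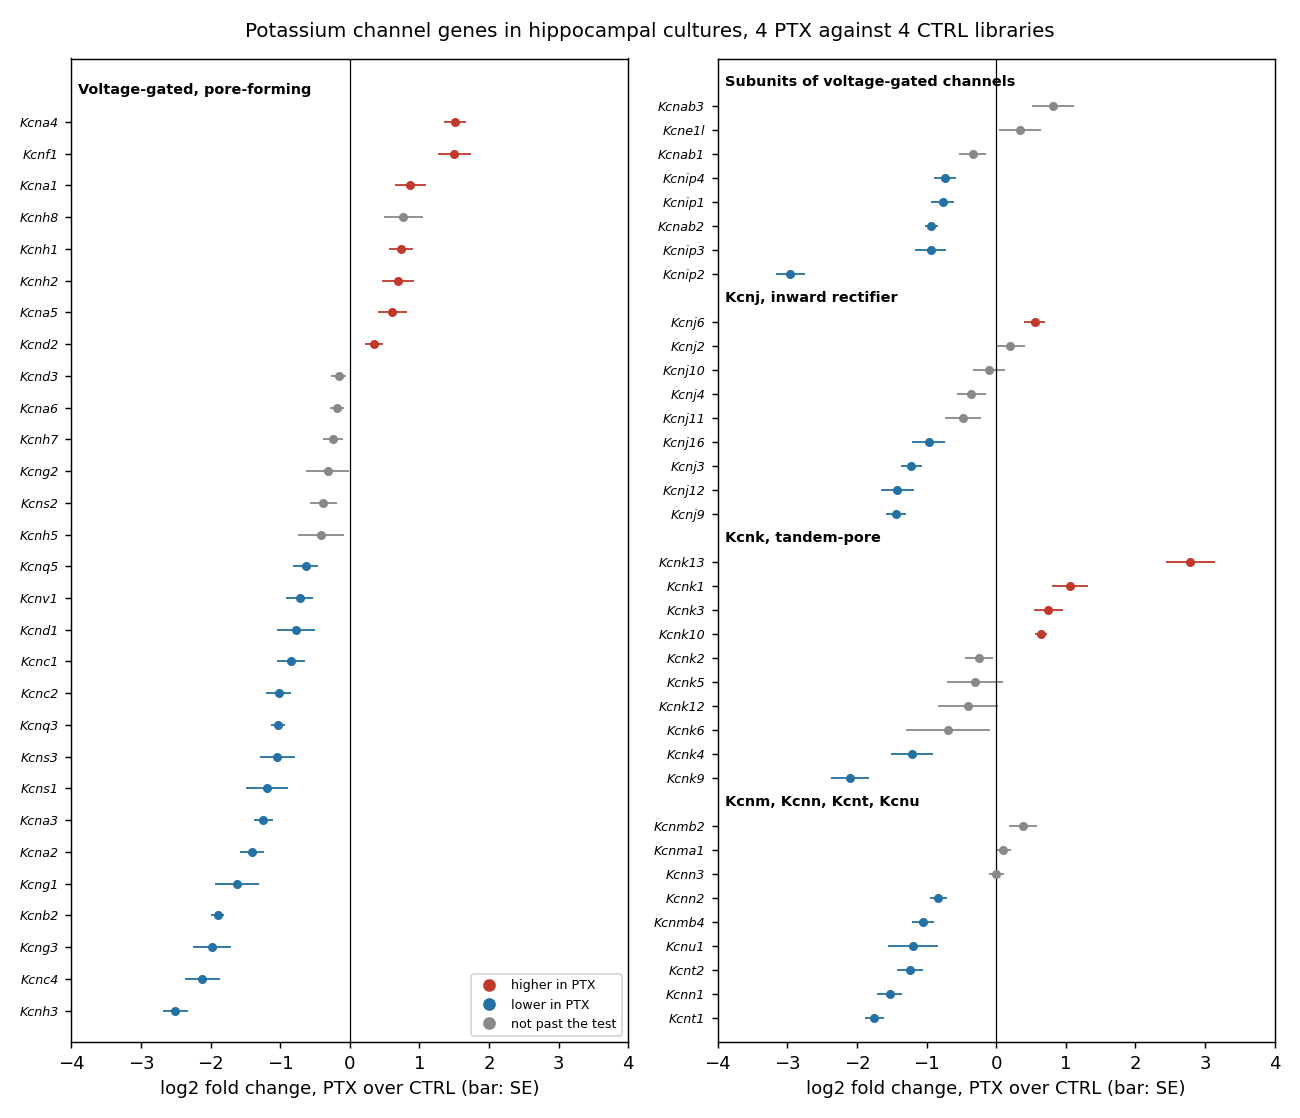
Log2 fold change (PTX over CTRL, n = 4 libraries each, edgeR) of 65 of the 69 tested potassium channel genes by class, with the standard error as a bar and the colour giving the call. Most genes lie to the left of 0, the 7 rises of the voltage-gated class lie to the right, Kcnip2 is the lowest at -2.96 and Kcnk13 the highest at 2.79.

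L3mbtl1 peaks lay within 2000 bp of an end of 15 of the 70 members (21.4%), where 26.0% of 14743 tested genes with a position had one. Of these 15, 8 fell (among them Kcnh3, Kcnq5, Kcns1, Kcnj12, Kcnmb4 and Kcnn2), 2 rose (Kcnd2 and Kcnh2) and 5 were not called (Kcng2, Kcnj2, Kcnj4, Kcnk12 and Kcnk5). The calls of Kcnd2 and Kcnh2 were each lost in 6 of 13 alternative fits, and that of Kcnq5 in 4. The peak of highest score was that of Kcnq5 (chr1:21960387-21961587, the authors' score 16.9, rank 478 of 4677). Kcnh3 had 2 peaks at its low-coordinate end, at chr15:99223967-99224719 and chr15:99225016-99225939 (mm10, with scores of 11.8 and 13.4). Peaks came from hippocampal tissue at postnatal day 7 to 8, while the RNA came from cultures, and wild-type and knockout signal were not analysed separately here.

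Promoter sequences were at hand for 49 of the 70 members (72 promoters), and in 3 members the peak covered the start site. They are shown because the L3mbtl1 list and a promoter entry coincide there. Members without an entry were not checked for a start site in a peak. Each is the stretch of 250 bases before the RefSeq start site (GRCm38.p6), 5′ to 3′ along the gene, with the bases inside the peak in capitals. Kcnd2, a Kv4 pore gene that rose in the main fit, lies at chr6:21215096-21215345 on the plus strand. Kcnj2, an inward rectifier, lies at chr11:111065914-111066163 on the plus strand and Kcnk5, a tandem-pore channel, at chr14:20181783-20182032 on the minus strand.
Kcnd2: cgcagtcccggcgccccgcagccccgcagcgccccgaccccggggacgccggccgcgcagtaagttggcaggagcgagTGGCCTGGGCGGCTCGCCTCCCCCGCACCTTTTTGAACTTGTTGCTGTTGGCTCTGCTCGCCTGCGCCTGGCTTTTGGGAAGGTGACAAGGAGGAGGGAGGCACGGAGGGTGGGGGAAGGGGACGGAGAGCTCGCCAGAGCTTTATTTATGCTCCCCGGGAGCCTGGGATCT
Kcnj2: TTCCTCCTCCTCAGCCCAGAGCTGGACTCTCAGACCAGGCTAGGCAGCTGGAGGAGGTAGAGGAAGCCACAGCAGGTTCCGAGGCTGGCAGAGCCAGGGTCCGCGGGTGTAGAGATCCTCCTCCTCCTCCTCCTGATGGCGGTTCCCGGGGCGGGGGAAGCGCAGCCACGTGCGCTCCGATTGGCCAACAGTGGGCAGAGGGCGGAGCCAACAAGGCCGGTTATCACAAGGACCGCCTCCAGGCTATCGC
Kcnk5: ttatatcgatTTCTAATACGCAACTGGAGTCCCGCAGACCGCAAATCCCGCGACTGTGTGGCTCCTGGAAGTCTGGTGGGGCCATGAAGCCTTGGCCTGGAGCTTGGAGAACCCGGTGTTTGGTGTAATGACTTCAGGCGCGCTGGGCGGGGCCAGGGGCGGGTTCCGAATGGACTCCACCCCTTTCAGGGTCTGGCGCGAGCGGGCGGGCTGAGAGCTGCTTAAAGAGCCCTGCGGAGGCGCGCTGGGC
The peak took in 172, 250 and 240 of the 250 bases, and the stretches held 22, 14 and 19 CG pairs, against a median of 6 over all 32851 promoters of the table. Over all 72 member promoters the median was 8 CG pairs.

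Sites read by activity-regulated factors were counted on both strands of the same windows. TGACG, the core of the cAMP response element (CRE), was found in 10 of 72 member promoters (13.9%) and in 17.8% of all promoters. The full element TGACGTCA, which contains that core, was found in 0 of 72 and in 1.55% of all, and the AP-1 site TGANTCA in 3 of 72 (4.17%, those of Kcnip3, Kcnip4 and Kcnk2) and in 6.75% of all. The core stood in a promoter of Kcnab2, Kcnc1, Kcnc4, Kcng3, Kcnn1 and Kcnt2, which fell. It also stood in those of Kcna6, Kcnh5 and Kcnj4, which were not called, and of Kcne4, which was not tested. Kcnc4 and Kcng3 were among the 6 largest falls of the voltage-gated class. They are printed for that reason, with the match in capitals (on either strand). Kcna2, another of those 6, had a promoter entry without the core. Kcnc4 lies at chr3:107458899-107459148 and Kcng3 at chr17:83631896-83632145, both on the minus strand.
Kcnc4: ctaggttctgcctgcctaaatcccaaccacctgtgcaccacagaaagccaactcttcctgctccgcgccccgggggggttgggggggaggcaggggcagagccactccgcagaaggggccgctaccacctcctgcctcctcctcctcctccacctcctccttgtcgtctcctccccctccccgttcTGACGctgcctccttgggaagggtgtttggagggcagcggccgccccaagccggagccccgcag
Kcng3: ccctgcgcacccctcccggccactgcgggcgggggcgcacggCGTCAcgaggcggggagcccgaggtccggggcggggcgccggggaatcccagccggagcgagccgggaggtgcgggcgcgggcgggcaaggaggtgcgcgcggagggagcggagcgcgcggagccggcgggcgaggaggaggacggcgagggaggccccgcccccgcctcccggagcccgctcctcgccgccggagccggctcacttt
The match begins 64 bases before the start site in Kcnc4 and 208 bases before it in Kcng3. A match is a run of letters and does not show that a factor binds there.

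Among the voltage-gated pore-forming genes, 18 of 33 fell (54.5%) and 7 rose (21.2%). Over all genes tested, 20.1% were called lower and 19.0% higher, so that the share of rises was near that over all genes. Kcnh3, a channel of the ether-à-go-go family enriched in the forebrain, had 5.81, 5.48, 3.52 and 5.70 CPM in PTX replicates 1 to 4, against 31.1, 32.1, 30.6 and 23.1 CPM in CTRL. No PTX library came near the lowest CTRL library, and the fall was 5.68-fold (log2 fold change -2.51, SE 0.18, edgeR adjusted p = 5.41e-06). Its relative Kcnh1 (EAG) went the other way, with 32.1, 19.6, 25.5 and 20.0 CPM in PTX against 16.6, 13.8, 15.2 and 12.4 CPM in CTRL. All PTX libraries lay above all CTRL libraries and Kcnh1 rose 1.67-fold (SE 0.17 on the log2 scale, edgeR adjusted p = 0.00617). Kcnh2, which encodes the ERG channel of slow repolarisation, rose 1.61-fold with groups that overlapped (edgeR adjusted p = 0.0388). Its call was lost without PTX replicate 1 (0.0651) or 2 (0.0811) or CTRL replicate 2 (0.0503), 3 (0.0998) or 4 (0.0987), or both libraries numbered 1 (0.0602), over a range of edgeR adjusted p across alternatives of 0.00193 to 0.0998. Kcnh5, Kcnh7 and Kcnh8 did not pass, with log2 fold changes of -0.41, -0.24 and 0.77, although with the replicate block Kcnh5 and Kcnh7 passed as lower and Kcnh8 as higher (edgeR adjusted p = 0.00657, 0.0215 and 0.0218). Kcnh8 also passed with other size factors (0.0416) and without PTX replicate 1 (0.0335) or CTRL replicate 2 (0.0264). Of the counts that the 6 Kcnh members shared in a library, Kcnh3 took 3.97% to 7.42% in PTX and 23.9% to 29.3% in CTRL.

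The Kcna genes encode the Shaker-type channels that sit largely on axons and terminals, and they split. Kcna4, whose channel inactivates fast, had 195, 146, 176 and 150 CPM in PTX, against 72.9, 65.5, 48.9 and 47.2 CPM in CTRL. The groups were far apart, a 2.84-fold rise (SE 0.16 on the log2 scale, edgeR adjusted p = 6.01e-05). Kcna1, a main axonal subunit, had 187, 105, 109 and 107 CPM in PTX and 95.9, 59.1, 65.4 and 57.5 CPM in CTRL. PTX replicate 1 was the highest and the groups did not overlap (1.83-fold higher, edgeR adjusted p = 0.0113). Kcna2, the usual axonal partner of Kcna1, had 10.2, 7.84, 7.79 and 5.52 CPM in PTX and 22.3, 19.1, 22.1 and 19.2 CPM in CTRL. It fell 2.64-fold (SE 0.17 on the log2 scale, edgeR adjusted p = 0.000147), and every PTX library was below every CTRL library. Kcna3 fell 2.36-fold, to 4.76 ± 0.613 CPM in PTX against 11.2 ± 0.607 CPM in CTRL (SD, n = 4 each). Kcna5 rose 1.53-fold with edgeR adjusted p = 0.0434, a call lost without PTX replicate 1 (0.0551) or 2 (0.0877), CTRL replicate 2 (0.100), 3 (0.0875) or 4 (0.105), or both libraries numbered 1 (0.0518), in DESeq2 (0.0697) and with no filter on low counts (0.130). Kcna6 had 40.2 ± 4.59 CPM in PTX and 45.5 ± 4.27 CPM in CTRL and passed as lower with the replicate block alone (edgeR adjusted p = 0.201 without it and 0.0396 with it). Kcna4 took 43.6% to 52% of the counts of the 6 Kcna members in PTX and 25.0% to 32.5% in CTRL, while Kcna2 took 1.81% to 2.57% in PTX and 8.76% to 11.3% in CTRL.

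Members that lie close together in the genome were compared. Kcna2 and Kcna3, which both fell, lie 52.8 kb apart on chromosome 3, and Kcnc4, which fell too, lies 323 kb from Kcna2. Kcna1 and Kcna5, which both rose, lie 101 kb apart on chromosome 6, and Kcna6, which was not called, lies 62.5 kb from Kcna1 on its other side. Within 500 kb of each other there were 9 pairs of members, and in the 4 pairs with both genes called the direction was the same. Of those 4 pairs, 3 are made of the same genes (Kcna2, Kcna3 and Kcnc4), and with 35 of 47 called members lower, a shared direction is common among members. In the other 5 pairs at least 1 gene was not called. The Kcna5 call was lost in 8 of 13 alternative fits. With the replicate block Kcna6 passed as lower (edgeR adjusted p = 0.0396), opposite to Kcna1 and Kcna5.

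Kv2 channels, the main delayed rectifiers of the cell body, include that of Kcnb2. Kcnb2 had 20.5, 19.0, 19.1 and 17.7 CPM in PTX, against 81.4, 68.8, 69.4 and 65.0 CPM in CTRL. The libraries of each group lay close together, and the fall was 3.73-fold (log2 fold change -1.90, SE 0.09, edgeR adjusted p = 8.62e-07). Silent subunits, which carry no current alone and join Kv2 subunits, mostly fell as well. Kcng3 had 2.87, 1.24, 1.45 and 2.25 CPM in PTX and 9.55, 7.29, 7.64 and 6.40 CPM in CTRL, and Kcng1 had 0.638, 0.354, 0.827 and 0.667 CPM in PTX and 1.53, 2.36, 2.25 and 1.50 CPM in CTRL. Kcng3 fell 3.95-fold (edgeR adjusted p = 0.000285) and Kcng1 3.08-fold (0.00224), both with groups that did not overlap. Kcng1 reached the count limit for members in CTRL alone, with 39 summed counts in PTX and 136 in CTRL. Kcns1 (2.28-fold), Kcns3 (2.05-fold) and Kcnv1 (1.65-fold) fell as well. Kcng2 (log2 fold change -0.32, edgeR adjusted p = 0.454) and Kcns2 (-0.38, 0.151) did not pass, though Kcns2 passed as lower with the replicate block (edgeR adjusted p = 0.00716).

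Kcnf1, another silent subunit of Kv2, was the exception. It had 167, 247, 220 and 170 CPM in PTX, against 48.6, 104, 77.1 and 54.4 CPM in CTRL. The lowest PTX library was above the highest CTRL library, which by itself makes PTX higher in 4 of 4 same-numbered pairs. The rise was 2.83-fold (log2 fold change 1.50, SE 0.24, edgeR adjusted p = 0.000723). So of 8 genes for silent subunits, 5 fell, 1 rose and 2 did not pass the test. Over all genes tested, 20.1% were called lower and 19.0% higher.

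**Figure D2:**
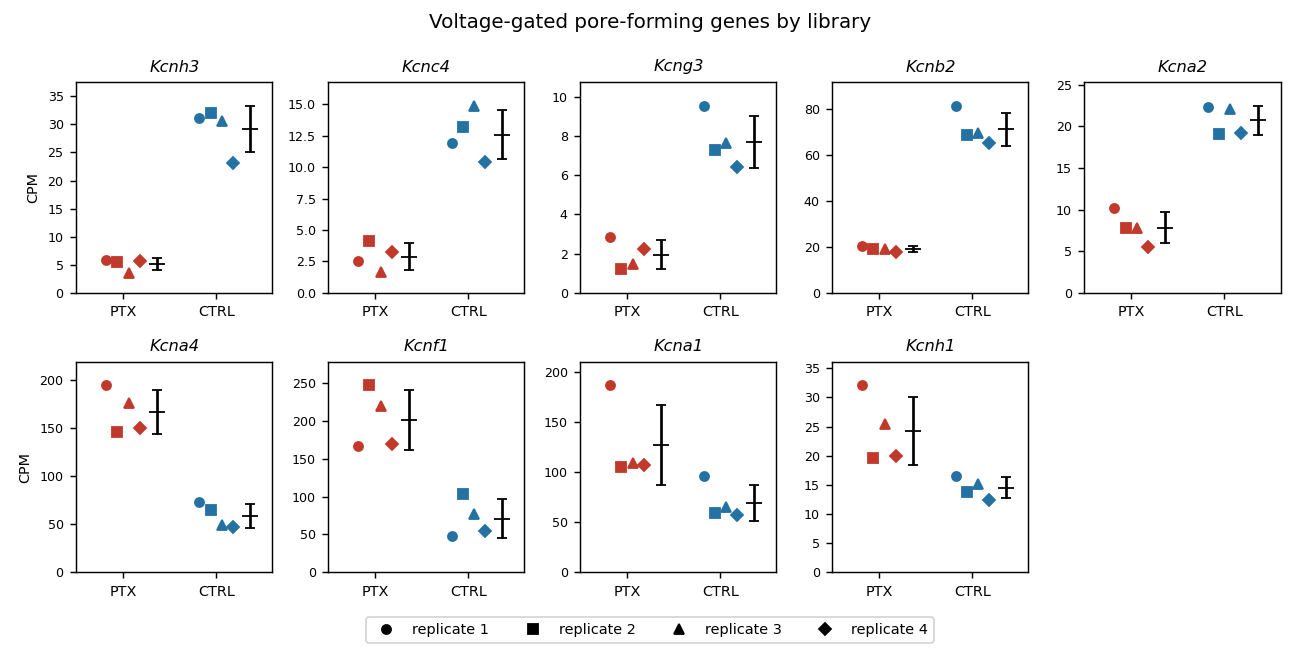
CPM per library of 9 voltage-gated pore-forming genes, 1 panel each with its own axis from 0, PTX at left and CTRL at right; marker shapes give the replicate number and the black bar the mean ± SD (n = 4). Kcnh3, Kcnc4, Kcng3, Kcnb2 and Kcna2 lie lower in PTX and Kcna4, Kcnf1, Kcna1 and Kcnh1 higher, with no overlap between groups in any of the 9.

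Kcnc genes encode the fast Kv3 channels that keep spikes short. Kcnc4 had 2.55, 4.13, 1.65 and 3.22 CPM in PTX and 11.9, 13.2, 14.9 and 10.4 CPM in CTRL. It fell 4.33-fold without overlap (SE 0.25 on the log2 scale, edgeR adjusted p = 0.000124). Kcnc2 (log2 fold change -1.02) and Kcnc1 (-0.85) fell as well.

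Kcnq3 and Kcnq5 encode subunits of the channels of the M-current, a slow brake on repeated firing that muscarinic receptors close. Kcnq3 fell 2.04-fold, to 69.9 ± 9.46 CPM in PTX against 142 ± 2.78 CPM in CTRL (SD, n = 4 each, edgeR adjusted p = 3.88e-05). Kcnq5 fell 1.55-fold with groups that overlapped (edgeR adjusted p = 0.0183), a call lost without CTRL replicate 1 (0.0821) or PTX replicate 2 (0.056), 3 (0.0879) or 4 (0.0836).

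The Kv4 channels of dendrites carry a fast transient current that damps back-propagating spikes, and they work in complexes with Kcnip proteins, which bind calcium, and with the membrane proteins Dpp6 and Dpp10. Kcnd2 was at 86.6 ± 10.8 CPM in PTX and 67.7 ± 9.72 CPM in CTRL, and Kcnd3 at 118 ± 12.9 CPM in PTX and 132 ± 15.3 CPM in CTRL (SD, n = 4 each). Kcnd2 rose 1.28-fold with edgeR adjusted p = 0.0474, a call lost without PTX replicate 2 (0.0896) or 3 (0.0549), CTRL replicate 2 (0.0869), 3 (0.0532) or 4 (0.109), and with no filter on low counts (0.0528). Kcnd3 did not pass (edgeR adjusted p = 0.287). Kcnd1 fell 1.71-fold from a low level (1.40 ± 0.459 CPM in PTX and 2.39 ± 0.426 CPM in CTRL, SD, n = 4 each, edgeR adjusted p = 0.0467). That call was lost without PTX replicate 1 (0.136), 2 (0.0931) or 4 (0.101), CTRL replicate 1 (0.101), 3 (0.126) or 4 (0.094), or both libraries numbered 1 (0.168), in DESeq2 (0.0636), with other size factors (0.0543) and with no filter (0.0734).

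All 4 Kcnip genes fell, where 20.1% of all genes tested were called lower. Kcnip2 (KChIP2) had 5.36, 3.24, 4.07 and 2.97 CPM in PTX, against 30.3, 37.2, 30.9 and 23.6 CPM in CTRL. The gap between the groups was wider than the spread in either, and this was the largest fall among the members (7.81-fold, log2 fold change -2.96, SE 0.21, edgeR adjusted p = 5.24e-06). Kcnip3, whose product is also known as the transcriptional repressor DREAM, had 13.8, 27.0, 16.1 and 15.2 CPM in PTX and 27.9, 41.2, 39.3 and 30.4 CPM in CTRL. Its highest PTX library, replicate 2, came close to the lowest CTRL library (1.92-fold lower, edgeR adjusted p = 0.00645). Kcnip1 had 20.6, 18.8, 16.3 and 14.5 CPM in PTX and 31.0, 34.6, 32.5 and 21.6 CPM in CTRL. Kcnip1 fell 1.71-fold (edgeR adjusted p = 0.00393) and Kcnip4 1.66-fold (0.00416), both without overlap. Of the counts that the 4 Kcnip genes shared, Kcnip2 took 4.94% to 10.7% in PTX and 24.8% to 27.7% in CTRL. Dpp10 fell 2.08-fold, to 98.5 ± 10.4 CPM in PTX against 205 ± 21.7 CPM in CTRL, whereas Dpp6 was at 176 ± 18.4 CPM in PTX and 174 ± 18.0 CPM in CTRL (SD, n = 4 each, edgeR adjusted p = 4.09e-05 and 0.913).

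**Figure D3:**
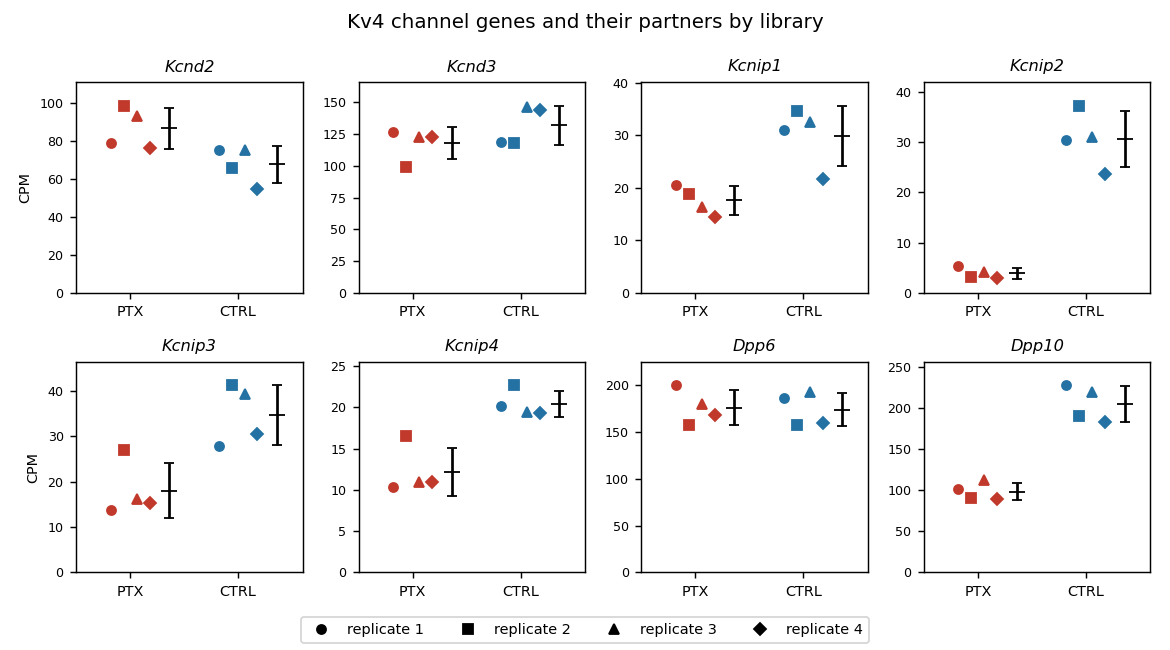
CPM per library of 2 Kv4 pore genes, 4 Kcnip genes, Dpp6 and Dpp10, each panel with its own axis from 0, PTX at left and CTRL at right; marker shapes give the replicate number and the black bar the mean ± SD (n = 4). The Kcnip genes and Dpp10 lie lower in PTX without overlap, Kcnd2 lies higher, and Kcnd3 and Dpp6 overlap.

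Among the other subunits of voltage-gated channels, Kcnab2, a beta subunit that binds Kv1 channels in the cytoplasm, had 45.3, 38.5, 35.6 and 37.2 CPM in PTX and 79.3, 69.1, 81.6 and 68.9 CPM in CTRL. It fell 1.91-fold with groups well apart (SE 0.10 on the log2 scale, edgeR adjusted p = 6.72e-05). Kcnab1 and Kcnab3, its relatives, did not pass (log2 fold change -0.34 and 0.81, edgeR adjusted p = 0.194 and 0.0558). With the replicate block Kcnab1 passed as lower (edgeR adjusted p = 0.00213) and Kcnab3 as higher (0.0103). Kcnab1 also passed without PTX replicate 2 (0.0406), and Kcnab3 without PTX replicate 2 (0.0334), without CTRL replicate 1 (0.0442) or 2 (0.0395), and in DESeq2 (0.032). Kcne1l was at 9.47 ± 3.31 CPM in PTX and 7.48 ± 2.35 CPM in CTRL (SD, n = 4 each, edgeR adjusted p = 0.398). Kcne4 did not pass the filter on low counts, with 3.64, 0.413, 0.483 and 1.09 CPM in PTX and 1.30, 0.112, 0.0999 and 0.131 CPM in CTRL, highest in both libraries numbered 1.

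Of 9 Kcnj genes, 4 fell (44.4%) and 1 rose (11.1%), where 20.1% of all genes tested were called lower and 19.0% higher. The G protein-gated channels (GIRK), which GABA-B and other receptors open to quiet neurons, are mixtures of the products of Kcnj3, Kcnj6 and Kcnj9. Kcnj3 (GIRK1) had 52, 45.7, 36.8 and 36.3 CPM in PTX and 119, 105, 90.7 and 82.8 CPM in CTRL. Kcnj9 (GIRK3) had 15.2, 15.6, 12.1 and 10.5 CPM in PTX and 34.4, 40.1, 38.5 and 31.6 CPM in CTRL. Both fell without overlap, Kcnj3 2.33-fold (SE 0.15 on the log2 scale, edgeR adjusted p = 0.000149) and Kcnj9 2.71-fold (SE 0.14, edgeR adjusted p = 4.09e-05). Kcnj6 (GIRK2), by contrast, rose 1.46-fold, with 14.2, 11.8, 15.5 and 13.5 CPM in PTX and 11.3, 8.53, 9.99 and 7.77 CPM in CTRL (edgeR adjusted p = 0.0146). Its PTX libraries were all above its CTRL libraries, by a small gap.

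Kcnj12, Kcnj2 and Kcnj4 encode strong inward rectifiers. Kcnj12 had 1.85, 1.83, 1.31 and 1.03 CPM in PTX and 5.13, 3.98, 3.65 and 3.46 CPM in CTRL, and it fell 2.68-fold (SE 0.24 on the log2 scale, edgeR adjusted p = 0.00121). Kcnj2 (log2 fold change 0.20) and Kcnj4 (-0.36) did not pass (edgeR adjusted p = 0.499 and 0.203), and Kcnj4 passed as lower with the replicate block (edgeR adjusted p = 0.00879). Kcnj11, the pore of ATP-sensitive channels, did not pass either (edgeR adjusted p = 0.183), while Abcc8, which encodes its sulfonylurea receptor partner, fell 2.23-fold (edgeR adjusted p = 0.00485). Of the astrocyte channel genes, Kcnj16 had 4.47, 8.20, 8.14 and 9.71 CPM in PTX and 10.8, 16.0, 14.8 and 18.2 CPM in CTRL. It fell 1.96-fold without overlap (edgeR adjusted p = 0.00866). Kcnj10, its partner in astrocyte channels, was at 26.3 ± 6.46 CPM in PTX and 28.4 ± 8.58 CPM in CTRL (SD, n = 4 each, edgeR adjusted p = 0.757). Of 10 astrocyte markers 4 fell and 0 rose (7 lower with the replicate block). Over all genes tested, 20.1% were called lower in the main fit and 29.6% with the replicate block. The summed level of the astrocyte markers was 4540 to 6270 CPM in PTX and 6230 to 8410 CPM in CTRL. Their part in the Kcnj16 result was not tested.

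The Kcnk genes encode tandem-pore leak channels, and here 4 of 10 rose (40.0%) and 2 fell (20.0%). Over all genes tested, 19.0% were called higher and 20.1% lower, so that the share of falls was near that over all genes. Kcnk13 (THIK-1) had 4.47, 8.79, 9.24 and 4.61 CPM in PTX and 0.531, 1.12, 1.25 and 0.980 CPM in CTRL. The groups were far apart, and the rise of 6.90-fold was the largest among the members (log2 fold change 2.79, SE 0.35, edgeR adjusted p = 0.000165). Kcnk13 was 1 of the 3 members that reached 80 counts in PTX alone. Of 9 tested microglia markers 1, the lysosomal gene Cd68, rose (3.18-fold) and 0 fell, while with the replicate block 3 were higher (Cd68, Csf1r and P2ry12). Over all genes tested, 19.0% were called higher in the main fit and 25.7% with the replicate block. The summed level of the 10 microglia markers was 44.2 to 192 CPM in PTX and 20.0 to 100 CPM in CTRL. Among them, C1qa was at 24.0 ± 20.0 CPM in PTX and 20.7 ± 11 CPM in CTRL (SD, n = 4 each). In replicates 1 to 4 that sum was 44.2, 192, 80 and 124 CPM in PTX and 20.0, 87.1, 100 and 83.7 CPM in CTRL. The part of microglia in the Kcnk13 result was not tested.

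Kcnk1 (TWIK-1) had 123, 227, 233 and 321 CPM in PTX and 76.7, 124, 121 and 112 CPM in CTRL. PTX replicate 1 fell within the CTRL range, although PTX was higher in 4 of 4 same-numbered pairs, and the rise was 2.08-fold (SE 0.26 on the log2 scale, edgeR adjusted p = 0.00872). Kcnk10 (TREK-2) rose 1.56-fold without overlap, to 56.0 ± 5.31 CPM in PTX against 35.8 ± 2.93 CPM in CTRL (SD, n = 4 each, edgeR adjusted p = 0.000454). Of its relatives, Kcnk4 (TRAAK) fell 2.32-fold, to 0.504 ± 0.0927 CPM in PTX against 1.18 ± 0.298 CPM in CTRL (SD, n = 4 each, edgeR adjusted p = 0.00863), and Kcnk2 (TREK-1) did not pass (log2 fold change -0.25, SE 0.20, edgeR adjusted p = 0.365), though it passed as lower with the replicate block (edgeR adjusted p = 0.015). Kcnk4 reached the count limit for members in CTRL alone, with 32 summed counts in PTX and 82 in CTRL.

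The acid-sensitive channels TASK-1 and TASK-3, which can join in 1 channel, were opposite. Kcnk3 (TASK-1) had 4.79, 3.48, 3.72 and 4.07 CPM in PTX and 3.18, 2.08, 2.05 and 2.22 CPM in CTRL. Kcnk9 (TASK-3) had 1.91, 1.71, 1.10 and 0.850 CPM in PTX and 7.19, 4.94, 6.69 and 5.23 CPM in CTRL. Neither gene's groups overlapped, Kcnk3 rose 1.68-fold (edgeR adjusted p = 0.0169) and Kcnk9 fell 4.29-fold (SE 0.27 on the log2 scale, edgeR adjusted p = 0.000214). The Kcnk3 call was lost without CTRL replicate 2 (edgeR adjusted p = 0.0524) or 3 (0.0561), over a range across alternatives of 0.00184 to 0.0561. Kcnk5, Kcnk6 and Kcnk12, each under 1 CPM on average, did not pass (edgeR adjusted p = 0.606, 0.404 and 0.5).

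**Figure D4:**
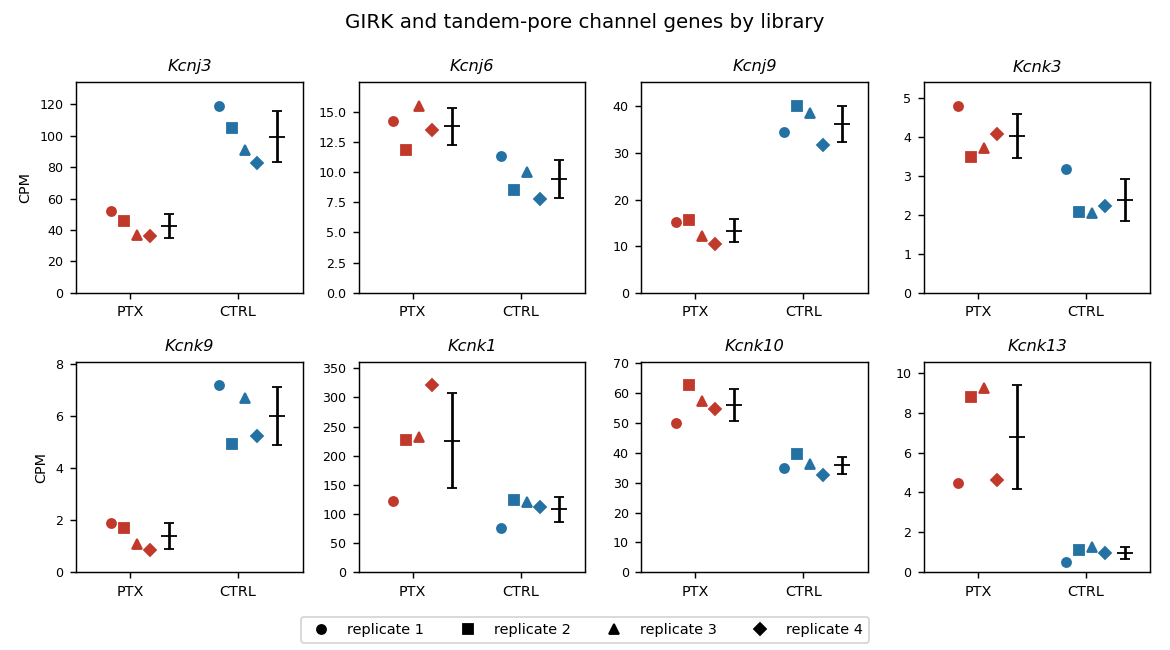
CPM per library of 3 GIRK genes and 5 tandem-pore genes, each panel with its own axis from 0, PTX at left and CTRL at right; marker shapes give the replicate number and the black bar the mean ± SD (n = 4). Kcnj3, Kcnj9 and Kcnk9 lie lower in PTX, and Kcnj6, Kcnk3, Kcnk1, Kcnk10 and Kcnk13 higher, with overlap between groups for Kcnk1.

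Of the 9 genes for channels gated by calcium or sodium and their relatives, 6 fell (66.7%) and 0 rose. Over all genes tested, 20.1% were called lower and 19.0% higher. Kcnt1 (Slack), gated by sodium, had 10.1, 7.49, 9.10 and 6.80 CPM in PTX and 29.8, 24.3, 30.5 and 27.8 CPM in CTRL. It fell 3.36-fold with a wide gap (log2 fold change -1.75, SE 0.14, edgeR adjusted p = 1.33e-05). Kcnt2 (Slick), the other sodium-gated channel, had 18.0, 31.2, 25.6 and 18.6 CPM in PTX and 49.5, 68.2, 55.0 and 47.7 CPM in CTRL, 2.36-fold lower (edgeR adjusted p = 0.000567).

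The Kcnn genes encode the SK channels, which calcium opens after a spike and which add to the afterhyperpolarisation. Kcnn1 had 5.62, 6.49, 4.69 and 4.37 CPM in PTX and 15.2, 19.5, 14.5 and 12.2 CPM in CTRL, and it fell 2.89-fold without overlap (SE 0.18 on the log2 scale, edgeR adjusted p = 0.000134). Kcnn2 fell 1.78-fold (edgeR adjusted p = 0.000539). Kcnn3 was at 26.9 ± 1.28 CPM in PTX and 27.0 ± 3.79 CPM in CTRL (SD, n = 4 each, edgeR adjusted p = 0.988), a fold change of 0.998 with SE 0.11 on the log2 scale. Kcnn3 took 57.8% to 65.9% of the counts of the 3 Kcnn genes in PTX and 35.7% to 50.5% in CTRL.

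Kcnma1, the pore of the BK channel, which joins voltage and calcium sensing, had 90.1, 74.3, 86.0 and 76.3 CPM in PTX and 88.3, 64.5, 75.5 and 76.2 CPM in CTRL, groups that overlapped (log2 fold change 0.10, SE 0.11, edgeR adjusted p = 0.505). Kcnmb4, the beta subunit of neuronal BK channels, fell 2.07-fold, to 8.83 ± 1.95 CPM in PTX against 18.2 ± 1.59 CPM in CTRL (SD, n = 4 each, edgeR adjusted p = 0.000626). The antisense transcript Kcnmb4os2 fell too, to 1.13 CPM on average in PTX against 2.78 CPM in CTRL (edgeR adjusted p = 0.00342), and without a stated strand setting the reads of such pairs cannot be told apart. Kcnmb2 did not pass (log2 fold change 0.38, edgeR adjusted p = 0.174). Kcnu1, known for a potassium channel of sperm, had 1.21, 1.83, 0.827 and 0.910 CPM in PTX and 4.25, 1.63, 3.05 and 2.16 CPM in CTRL. It fell 2.30-fold with groups that overlapped (edgeR adjusted p = 0.024), and the call was lost without PTX replicate 3 (0.080) or 4 (0.074), CTRL replicate 1 (0.0751) or 3 (0.0608) or both libraries numbered 1 (0.0946). Kcnu1 reached the count limit for members in CTRL alone, with 77 summed counts in PTX and 195 in CTRL.

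A list of 31 genes whose products bind or traffic these channels was read from the same fit. Of 27 tested, 12 fell and 6 rose, where 20.1% of all genes tested were called lower and 19.0% higher. Their median log2 fold change was -0.07, against -0.03 over all genes. Among partners of Kv1 channels, Cntn2 fell 4.89-fold, Lgi1 2.25-fold, Adam22 1.96-fold and Cntnap2 1.51-fold, while Adam23 (log2 fold change -0.30, edgeR adjusted p = 0.0744) and Dlg2 (0.01, 0.97) did not pass. Amigo1, a partner of Kv2, fell 2.28-fold, to 16.5 ± 2.77 CPM in PTX against 37.6 ± 3.53 CPM in CTRL (SD, n = 4 each, edgeR adjusted p = 7.54e-05), whereas Vapa and Vapb, which anchor Kv2 clusters, did not pass (edgeR adjusted p = 0.293 and 0.669). Akap5, a scaffold of M-channels, fell 2.63-fold, and the calmodulin genes Calm2 and Calm3 fell 1.51-fold and 1.33-fold. The 6 that rose were Rgs7 (4.96-fold), Gpr158 (2.33-fold), Lrrc55, Ank3, Nedd4l and Fmr1. Rgs7, which speeds the closing of GIRK channels, was at 340 ± 32.1 CPM in PTX and 68.6 ± 6.30 CPM in CTRL (SD, n = 4 each, edgeR adjusted p = 4.87e-07).

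By the median, the members were longer than the genes tested. The median span was 51.8 kb over the 70 members and 24.3 kb over all tested genes with a position. It was 56.0 kb for the members that fell, 37.1 kb for those that rose and 47.0 kb for the 22 not called. The part of gene span in the calls was not tested.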

How the data were processed

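For each library the authors deposited whole-number read counts by Ensembl identifier. Libraries were made with ScriptSeq v2 from 15 ng of RNA freed of ribosomal RNA, per the labels' protocols. The submitters' processing notes name HTSeq 0.6.1, TopHat2 2.0.9, Bowtie2 2.2.4, CASAVA 1.8 and build mm10 without their roles. They leave the strand setting and annotation version unstated. The 5 summary lines held 38.5% to 45.1% of each table and were left out. For ChIP-seq the authors deposited 1 list of 4677 peaks over all 6 samples, each with a score whose meaning, like the caller and the role of the knockout, is unstated.

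Of 43629 identifiers, 42462 matched a symbol. PTX and CTRL were compared in edgeR 4.0.16 (R 4.3.3, quasi-likelihood F test, TMM, filterByExpr, group as the only term), with Benjamini-Hochberg adjustment over 15959 genes and calls at adjusted p under 0.05. CPM used TMM-scaled library sizes. Standard errors of log2 fold changes were taken as the absolute change over the root of F. Alternatives used DESeq2 1.42.0, other size factors, no filter, a replicate block and left-out libraries. The fit was tested on simulated counts. Deviations of same-numbered PTX and CTRL libraries had r = 0.15 to 0.77 across genes in 4 pairs, against -0.5 to 0.21 for different numbers. The r of 0.15, for number 3, lies within that range, so pairing is not shown for that number. The replicate block takes the numbers to pair the libraries, while the main calls ignore any pairing. No library was a copy of another (chi-square per degree of freedom of at least 9.45). Gene ends came from a RefSeq table (GRCm38.p6, the assembly of mm10), promoters (both strands searched) from RefSeq. Of the 70 members, 49 had a promoter entry.

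The members, classes and gene lists were chosen with earlier results of these data known. Values per library are given for the 6 largest falls and 4 largest rises among called voltage-gated pore-forming genes, the 4 largest changes in each other class (mean of at least 1 CPM), and the member of each class with the most counts. Values per library of Kcnj6, Kcne4, Kcnh6 and Kcnj14 were added after they had been seen. Some genes are not reported here by name, and counts over members include them.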

Additional observations from a re-analysis of the deposited data

Results flagged for a closer look

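In 54 groups of 4 libraries (27 named genes in PTX and in CTRL), 5 had a library whose gap to its nearest neighbour made up more of the group's range than Dixon's 95% limit allows, where chance gives about 1 in 20. PTX replicate 1 stood high for Kcna1 (187 CPM), and PTX replicate 2 stood high for Kcnip3 (27.0 CPM). PTX replicate 3 stood low for Kcnh3 (3.52 CPM). In CTRL, replicate 4 stood low for Kcnh3 (23.1 CPM) and replicate 1 stood high for Kcnk3 (3.18 CPM). The libraries numbered 1 in both groups are those with the high meningeal fibroblast markers, and the part of those markers in these values was not tested.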

How the results depend on the processing

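Of the 47 called members, 40 kept their call under all 13 alternative fits (32 falls and 8 rises), and the other 7 are given above with the fits that lost it. The replicate block added 10 calls among the members and removed 0, and it gave 14 rises and 43 falls. DESeq2 gave 12 rises and 34 falls, other size factors 13 and 34, no filter 10 and 34, and leaving out both libraries numbered 1 gave 10 and 33. Leaving out 1 library at a time gave 8 to 13 rises and 32 to 35 falls. Members with at least 400 counts gave 11 rises and 29 falls. Shares over all genes were computed only for the main fit, the replicate block and DESeq2. The other counts of calls here therefore have no such share to be set against. For the 27 genes named by rule, 344 of 351 refitted values kept direction and side of the threshold, 7 missed the threshold (Kcnk3 and Kcnu1) and 0 changed sign. The count of 15 members with a peak became 13 within 1000 bp, 18 within 5000 bp, 11 with the higher-scoring peaks, 14 where most of the peak had to lie in the window, and 10 among members with at least 400 counts. Errors were widest for 3 genes near the limit of 80 counts, with an SE on the log2 scale of 0.60 for Kcnk6 (110 counts), 0.43 for Kcnk12 (87) and 0.40 for Kcnk5 (95), while Kcnk4 (114) had 0.30.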

Other observations

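Class sums weigh each gene by its counts. The voltage-gated pore-forming class summed to 1260 ± 118 CPM in PTX and 1354 ± 101 CPM in CTRL, the subunits of voltage-gated channels to 135.3 ± 17.2 CPM in PTX and 237.8 ± 24.4 CPM in CTRL, the Kcnj class to 143.6 ± 11.7 CPM in PTX and 235.7 ± 18.2 CPM in CTRL, and the Kcnm, Kcnn, Kcnt and Kcnu group to 176.7 ± 11.3 CPM in PTX and 251.1 ± 9.55 CPM in CTRL (SD, n = 4 each). The tandem-pore class summed to 340.7 ± 92.9 CPM in PTX and 210.2 ± 31.0 CPM in CTRL, of which Kcnk1 alone made up 226 CPM in PTX and 108 CPM in CTRL, and the median log2 fold change of its 10 genes was -0.27. Kcna genes summed to 349.1 ± 67.4 CPM in PTX and 207.1 ± 33.2 CPM in CTRL. The 3 Kcnd pore genes summed to 206 ± 8.91 CPM in PTX and 202 ± 16.2 CPM in CTRL, while the 4 Kcnip genes summed to 51.7 ± 9.65 CPM in PTX and 115.5 ± 17.4 CPM in CTRL.

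After centring within each group, the genes whose log2 CPM over the 8 libraries was closest to Kcnip2 were Pim3 (r = 0.98), Socs5 (0.98), Pam (0.97), Tbc1d1 (0.96) and Bend5 (0.96). These were the highest r over 15959 tested genes in only 8 libraries, whose replicate numbers are shared between the groups. How high the best r would be by chance was not tested.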
